A study of Mus musculus with 6 samples.

Results

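RNAs known for a terminal oligopyrimidine (TOP) tract, but encoding neither ribosomal proteins nor translation initiation or elongation factors, were followed in RNA that co-precipitated with LARP1 from mouse dorsal root ganglia. There were 9: Tpt1, Pabpc1, Npm1, Naca, Nap1l1, Btf3, Hnrnpa1, Cox7c and Gas5. They were chosen by Ensembl gene identifier, and all 9 were present among the 16976 genes of the count table. Dorsal root ganglia hold the cell bodies of sensory neurons beside the spinal cord, together with glia and other cells. The groups were wild-type ganglia after sciatic nerve injury (3 libraries) and wild-type ganglia without injury (3 libraries). The labels state no age, sex, time after injury or pooling of animals. Lysate was precipitated with an antibody to LARP1, and the recovered RNA was made into amplified, barcoded cDNA libraries for nanopore sequencing. No unprecipitated RNA or control precipitate was analysed here, so a level is an amount in the precipitate and not a binding strength.

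A TOP tract is a C at the first base of an RNA followed by an unbroken run of pyrimidines (C or T, the latter read as U in RNA). LARP1 binds the cap and the first bases of such RNAs, and holds their translation back and protects them from decay when mTOR, the growth-sensing kinase, is less active. In sensory neurons mTOR and local translation have been linked to the growth response after nerve injury. The RNAs described here have varied roles: Nap1l1 and Npm1 encode histone chaperones, Pabpc1 and Hnrnpa1 encode RNA-binding proteins, and Naca and Btf3 encode the partners of the nascent polypeptide-associated complex. Tpt1 encodes the translationally controlled tumour protein, Cox7c encodes a small subunit of cytochrome c oxidase, and Gas5 is a non-coding host of small nucleolar RNAs.

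The bases around the annotated start of each gene are shown because the TOP tract defines this class of RNA. RefSeq start sites of build GRCm38.p6 were held for 7 of the 9 genes, Pabpc1 and Npm1 being the others, with 9 start sites among them. Each line gives 10 bases before and 20 bases from the annotated start, 5′ to 3′ on the gene's own strand, and capitals mark runs of at least 5 pyrimidines that reach within 10 bases of the start.
Gas5, downstream start, chr1:161035156-161035185, plus strand: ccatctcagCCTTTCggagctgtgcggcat
Gas5, upstream start, chr1:161034591-161034620, plus strand: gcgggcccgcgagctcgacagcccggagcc
Nap1l1, chr10:111473217-111473246, plus strand: gCTCTCgggTCTTTTTTagcgccatctgct
Cox7c, chr13:86046776-86046805, minus strand: tgtaaCTCCCaTCTTCCCTTTCggtcttcg
Naca, chr10:128035336-128035365, plus strand: tcgTTCTCTTaaagaggaaacccggacgcc
Btf3, downstream start, chr13:98316948-98316977, minus strand: TagctgccatcttgcgTCCCCgcgtgtgtg
Btf3, upstream start, chr13:98316987-98317016, minus strand: tctggaggaagtggcgtcgcgttacttccg
Tpt1, chr14:75845246-75845275, plus strand: cgctgacgacagttccgggggagccgcgga
Hnrnpa1, chr15:103240387-103240416, plus strand: agagcgaggaggcgggataaaagggcgagc

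An annotated start with C as its first base and a run of at least 5 pyrimidines was found for 2 genes, Gas5 (at 1 of its 2 starts) and Nap1l1, and for 2.51% of the 32851 starts in the RefSeq table. A pyrimidine run within 10 bases of the start was less selective, being present at 5 of the 9 starts and at 44.9% of all starts. In Cox7c the longest such run was 11 bases long and lay at positions 2 to 12, counted from 1 at the annotated start. In Naca a run of 7 bases ended directly before the start, at position -1. At the downstream start of Btf3 the first capital is the last base of a run of 9 bases, at positions -18 to -10. Tpt1, Hnrnpa1 and the upstream starts of Gas5 and Btf3 had no such run within 10 bases of the start. Annotated starts need not be those used in ganglia, and no reads over the first bases were analysed here.

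The injured libraries held 211337 to 211879 counts and the uninjured libraries 116186 to 116608. Variance between libraries of a group was 1.12 times counting noise in the injured and 1.16 times in the uninjured group, over 6152 and 3827 genes whose group sum reached 15 counts. No member exceeded counting noise between its libraries at a chi-square p under 0.05, and the median ratio of observed to counting variance was 0.419 in the injured and 0.384 in the uninjured group. The 3 libraries of a group were therefore summed and treated as 1 sample, since nothing in the labels says that they came from separate animals. Levels are CPM, the counts scaled to a common total per group, intervals are 95% exact intervals that cover counting error only, and injury and any batch of preparation cannot be told apart. A gene is called when edgeR's quasi-likelihood test over all 3158 genes left by the filter on low counts put it under a Benjamini-Hochberg threshold of 0.05. That test took the 6 libraries unsummed, so the spread it used is that between libraries of a group. Since the test sets the reads of 2 samples against each other and has no spread between animals, p-values of single genes are left out.

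Together the 9 RNAs held a larger share of the precipitate after injury. They took 1938 of 634615 counts in the injured group, or 0.305% (0.292% to 0.319%), against 602 of 349027 in the uninjured group, or 0.172% (0.159% to 0.187%). The injured share was 1.77 times the uninjured one (1.61 to 1.94). Shares of single libraries ran from 0.295% to 0.311% in the injured and from 0.166% to 0.178% in the uninjured group, without overlap. Cox7c alone made up 55.2% of the gain in share. Without Cox7c the ratio of shares was 1.44 (1.29 to 1.60). In bulk tissue, more cells that hold an RNA and more RNA per cell cannot be told apart, and markers of the ganglion's cell types were not analysed here because the identifiers are not paired with gene symbols.

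**Figure D1:**
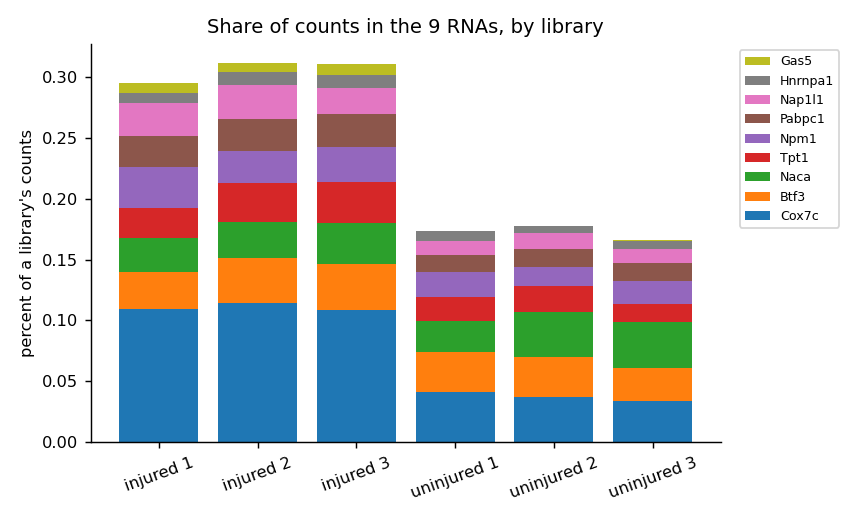
Percent of each library's counts that fell in the 9 RNAs, stacked by gene, for the 3 injured and the 3 uninjured libraries. The stacks reach 0.295% to 0.311% in the injured and 0.166% to 0.178% in the uninjured libraries, and the Cox7c segment differs most.

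By the test, 6 of the 9 RNAs were called higher after injury, 0 were called lower and 3 were not called. Among all 3158 genes tested, 24.9% were called higher and 22.1% lower. The 6 called RNAs were Gas5, Cox7c, Nap1l1, Pabpc1, Npm1 and Tpt1. In the same 6, all 3 injured libraries lay above all 3 uninjured ones, as they did for 32.4% of the genes tested. In none of the 9 did all injured libraries lie below, a pattern of 23.1% of the genes tested. All 9 passed the filter on low counts, but Gas5 did so through its injured libraries alone. With 0, 0 and 1 uninjured counts it could pass only by being higher after injury. Without Gas5, 5 of the other 8 were called higher. The median ratio of injured to uninjured level was 1.65 over the 9 RNAs and 1.06 over all genes tested, whose quartiles were 0.728 and 1.67. A ratio above 1 was seen for 8 of the 9, Gas5 among them, and for 54% of the genes tested. The 8 were above 1 by column totals, with TMM factors and with RLE size factors alike. Because the filter set its direction, Gas5 adds no support to this count, to the median or to the 6 without overlap.

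The call rests on the small spread between libraries of 1 sample. When the counts were summed and an assumed coefficient of variation of 0.2 took the place of that spread, Gas5 and Cox7c were called higher, against 9.66% of all genes tested. Without Gas5 this was 1 of 8. With 0.4, edgeR's exact test called 0 of the 9 and 1.33% of all genes tested higher.

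Gas5 (ENSMUSG00000053332), the non-coding member, was almost undetected without injury. Its counts were 16, 15 and 19 in the injured libraries and 0, 0 and 1 in the uninjured libraries. The groups did not overlap. Its level was 78.8 CPM (58.5 to 103.9) in the injured and 2.87 CPM (0.0725 to 16.0) in the uninjured group. The ratio of 27.5 has an interval of 4.71 to 1108, because it rests on 1 uninjured count. Had the uninjured reads held Gas5 at the injured level, 27.5 counts would have fallen in them. Without the uninjured library that held the count, 0 of 232841 uninjured counts remained, which allows a share of up to 0.00129%, and the injured level was at least 6.12-fold higher against a floor of 3 counts over the group. Gas5 overlaps 8 small nucleolar RNA genes in the RefSeq annotation, and Tpt1, Nap1l1 and Cox7c overlap 1 each. These overlaps do not tell exons from introns, so whether reads could have been assigned to either gene is not known.

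Cox7c (ENSMUSG00000017778), a nuclear-encoded subunit of respiratory complex IV, gave the most counts of the 9 in both groups. Its counts were 232, 241 and 229 in the injured libraries, against 48, 43 and 39 in the uninjured libraries. The injured libraries stood close together at 1083 to 1140 CPM, against 336 to 413 CPM in the uninjured libraries. The group levels were 1106 CPM (1026 to 1191) in the injured and 372 CPM (311 to 442) in the uninjured group. The ratio of 2.97 (2.46 to 3.61) had the most counts behind it and lay above 90.8% of the genes tested. Cox7c made up 36.2% of the members' counts in the injured and 21.6% in the uninjured group.

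Among the histone chaperones, the larger ratio was that of Nap1l1 (ENSMUSG00000058799). Counts of Nap1l1 were 58, 60 and 44 in the injured libraries, against 13, 15 and 13 in the uninjured libraries. The third injured library was the lowest of its group and still stood at 208 CPM, against at most 129 CPM in an uninjured library. Its levels were 255 CPM (218 to 298) in the injured and 117 CPM (84.3 to 159) in the uninjured group, a ratio of 2.17 (1.53 to 3.14). Npm1 (ENSMUSG00000057113), the nucleolar protein nucleophosmin, had 71, 57 and 61 counts in the injured libraries, against 23, 18 and 22 in the uninjured libraries. Its ratio was 1.65 (1.23 to 2.23), with 298 CPM (257 to 343) in the injured and 181 CPM (139 to 231) in the uninjured group. The groups did not overlap, but the call of Npm1 was lost without the second uninjured library, where the log2 ratio was 0.62 in place of 0.72. The interval of the ratio between both changes, 1.32 (0.825 to 2.12), included 1, so that the larger value for Nap1l1 is not separated from that for Npm1 by counting error.

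Of the RNA-binding proteins, Pabpc1 was called and Hnrnpa1 was not. Pabpc1 (ENSMUSG00000022283), the cytoplasmic poly(A)-binding protein, had 54, 54 and 57 counts in the injured libraries, against 17, 17 and 17 in the uninjured libraries. The libraries of each group were nearly identical, at 255 to 270 CPM in the injured and about 146 CPM in the uninjured group. Its levels were 260.0 CPM (222 to 303) in the injured and 146 CPM (109 to 192) in the uninjured group, a ratio of 1.78 (1.29 to 2.49). Hnrnpa1 (ENSMUSG00000046434), a splicing regulator that shuttles between nucleus and cytoplasm, had 18, 23 and 23 counts in the injured libraries, against 10, 7 and 8 in the uninjured libraries. The groups overlapped, since the lowest injured library, at 85.0 CPM, lay just below the highest uninjured one, at 86.0 CPM. The ratio of 1.41 had an interval of 0.874 to 2.33, which includes 1 and also the ratios of all other members except Gas5 and Cox7c. It rests on 64 injured and 25 uninjured counts.

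Tpt1 (ENSMUSG00000060126), a small abundant protein tied to cell growth and survival, had 51, 67 and 72 counts in the injured libraries, against 23, 25 and 17 in the uninjured libraries. The groups did not overlap, although the first injured library, at 241 CPM, came near the highest uninjured one, at 214 CPM. Its levels were 299 CPM (258 to 345) in the injured and 186 CPM (144 to 237) in the uninjured group, a ratio of 1.61 (1.21 to 2.16). The call was lost without the third uninjured library, where the log2 ratio was 0.54 in place of 0.68. Tpt1 was also not called by DESeq2 or when no filter on low counts was applied. The RefSeq table lists 7 pseudogenes named after Tpt1, 2 named after Hnrnpa1 and 1 named after Cox7c, so reads of these genes could have been shared with near-identical copies. Copies under other names were not counted, so the same limit may hold for the other members.

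The nascent polypeptide-associated complex, which binds growing protein chains at the ribosome, was not called in either subunit. Naca (ENSMUSG00000061315), the alpha subunit, had 60, 63 and 70 counts in the injured libraries, against 30, 43 and 44 in the uninjured libraries. Relative to depth the groups overlapped, with 283 to 331 CPM in the injured and 258 to 379 CPM in the uninjured libraries. Its ratio of 0.907 (0.717 to 1.15) was the lowest of the 9 and the only one below 1. Btf3 (ENSMUSG00000021660), the beta subunit, had 64, 78 and 81 counts in the injured libraries, against 38, 39 and 32 in the uninjured libraries. These groups overlapped too, at 302 to 383 CPM in the injured and 275 to 334 CPM in the uninjured libraries, and the ratio was 1.13 (0.891 to 1.43). There were 0.865 Naca counts per Btf3 count in the injured group (0.710 to 1.05), against 1.07 in the uninjured group (0.820 to 1.41). The injured ratio was 0.807 times the uninjured one, with an interval of 0.575 to 1.13 that includes 1.

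**Figure D2:**
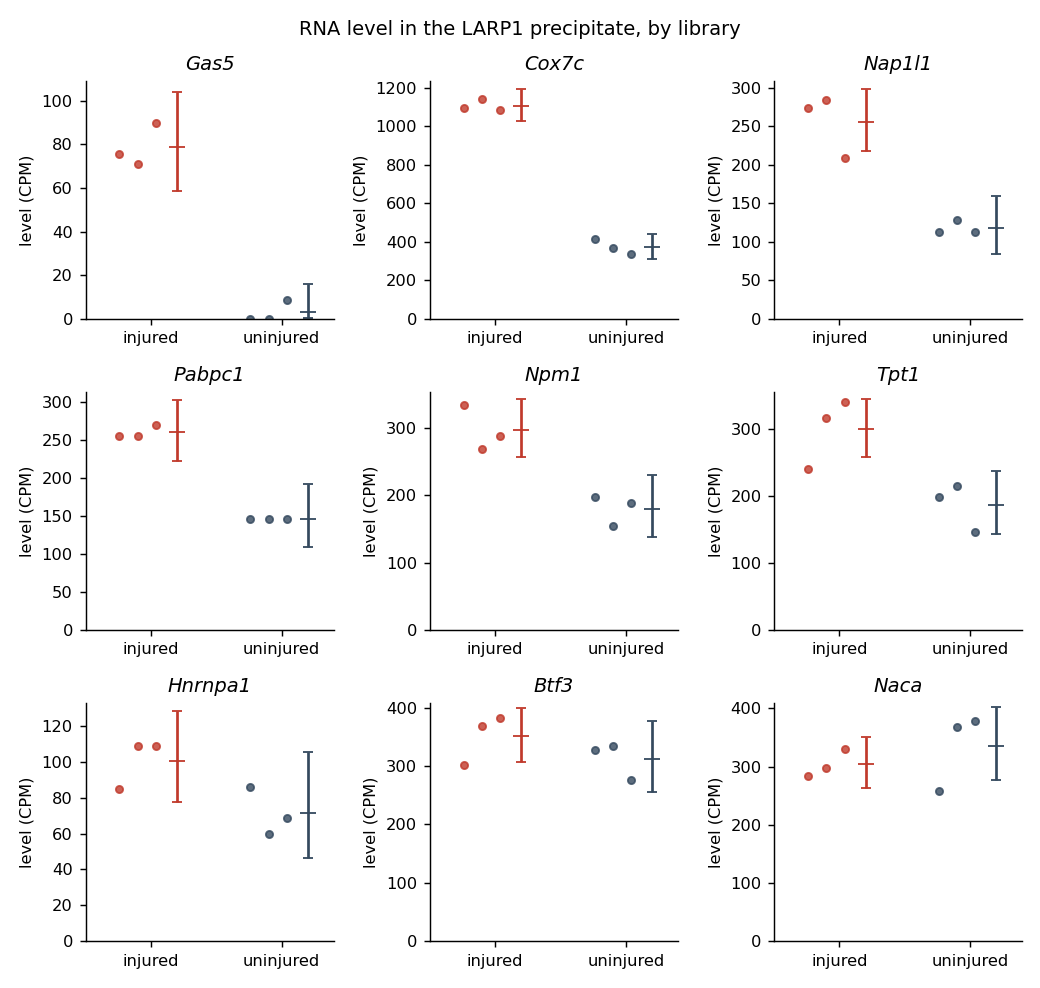
Level in CPM of each of the 9 RNAs in the 3 injured (left, red) and the 3 uninjured (right, dark) libraries, as points, with the level of the summed group and its 95% exact Poisson interval as a dash and bar. Points of the groups overlap for Hnrnpa1, Btf3 and Naca and do not for the other 6.

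Judged by counting error alone, the 9 RNAs did not change by a common factor. The intervals used for this do not cover spread between animals. Ordered by ratio they ran from Gas5 at 27.5 through Cox7c, Nap1l1, Pabpc1, Npm1, Tpt1, Hnrnpa1 and Btf3 to Naca at 0.907. Of the 8 pairs of neighbours in this order, Gas5 and Cox7c were the pair whose ratio of ratios had a 95% interval without 1, at 9.25 (1.55 to 376). For the other 7 pairs of neighbours the interval included 1. Widened for 36 comparisons by Bonferroni's rule, the interval of Gas5 and Cox7c included 1 as well (0.849 to 13700), so 0 of the 8 neighbours were then separated. Over all 36 pairs the 95% interval left out 1 for 21, and for 13 once widened. Of these 13, 11 involved Gas5 or Cox7c. The other 2 set Nap1l1 and Pabpc1 against Naca, at 2.39 (1.22 to 4.89) and 1.96 (1.03 to 3.82) with the widened interval. Pairs with Gas5 say little here, because it passed the filter through its injured libraries alone, which favours a high ratio. Apart from Gas5, Cox7c was separated from Npm1, Tpt1, Btf3 and Naca with the widened interval. The change of Cox7c was 3.27 times that of Naca (1.99 to 5.37, widened). It was 1.80 times that of Npm1 (1.01 to 3.16, widened).

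**Figure D3:**
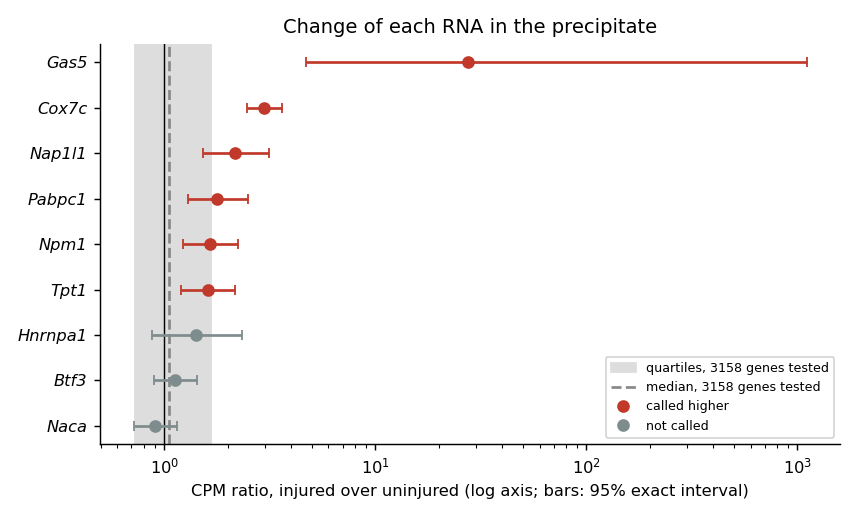
Ratio of injured to uninjured CPM on a log axis for each of the 9 RNAs, with 95% exact intervals; red marks RNAs called higher and grey those not called. The band and the dashed line give the quartiles, 0.728 and 1.67, and the median, 1.06, of the 3158 genes tested. The intervals of Hnrnpa1, Btf3 and Naca include 1.

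Against all genes tested, the positions were spread from the middle to the upper end. Naca lay above 39.3%, Btf3 above 53.9% and Hnrnpa1 above 66.7% of the 3158 log2 ratios. Tpt1, Npm1 and Pabpc1 lay above 73.4%, 74.3% and 77.6%, close to the upper quartile. Nap1l1 lay above 84.5% and Gas5 above 99.7%. Gas5 keeps its single uninjured count there while genes with 0 counts are set to 3, which favours its rank. With every group sum under 3 set to 3, its ratio was 9.17 and it lay above 98.2%.

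**Figure D4:**
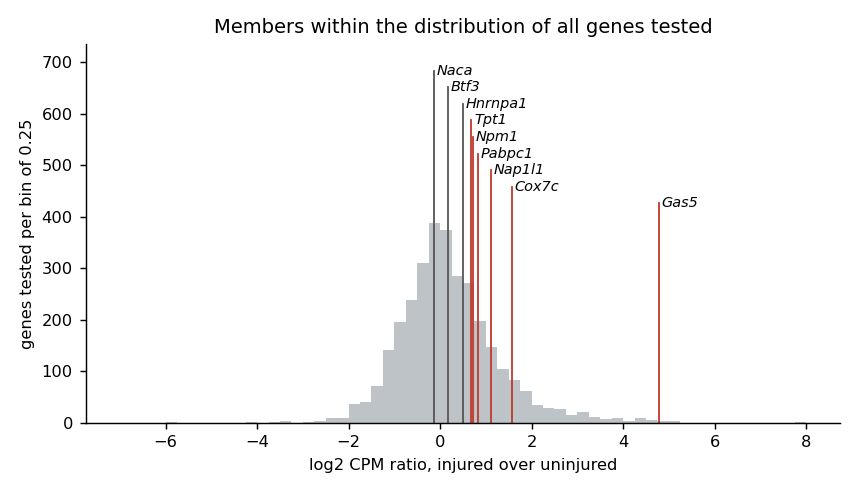
Distribution of the log2 CPM ratio, injured over uninjured, over the 3158 genes tested (grey bars, genes per bin of 0.25), with vertical lines for the 9 RNAs, red where called higher. Naca lies below 0, Tpt1, Npm1 and Pabpc1 lie close to the upper quartile, and Gas5 stands in the far right tail. A group with 0 counts was set to 3 counts.

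The genes with the most similar levels were sought by Euclidean distance in log2(CPM + 1) over the 6 libraries. Nearest to Cox7c was ENSMUSG00000023004, at a distance of 0.275, with 230, 228 and 210 counts in the injured libraries, against 49, 37 and 37 in the uninjured libraries. Nearest to Gas5 was ENSMUSG00000030649, at a distance of 0.358, with 13, 13 and 19 counts in the injured libraries, against 0, 0 and 1 in the uninjured libraries. The likeness covers 2 samples only, and the table does not pair these identifiers with names.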

How the data were processed

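LARP1 precipitates of injured and uninjured wild-type ganglia were measured in 6 libraries. The authors deposited estimated counts, unnormalized, by Ensembl identifier; minimap2, Salmon and GRCm39 (mm39) are named in the submitters' processing notes, and versions, annotation and filters are not stated there. All values were whole numbers. Salmon divides reads among similar transcripts by estimation, and PCR copies were not removed by molecular identifiers. Groups and replicate numbers came from the sample titles, and 0 further columns were unused. Members and lists were chosen with earlier results of these data known. All 9 members are named, besides the genes nearest to Cox7c and Gas5.

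CPM used column totals. Ratios have Clopper-Pearson, levels Poisson intervals (95%; SciPy 1.17.1), and ratios of ratios are conditional odds ratios. The test was edgeR 4.0.16 (R 4.3.3; TMM, filterByExpr, Benjamini-Hochberg 0.05). On simulated data for injured against uninjured libraries (3032 genes), it found 26.9% of 67 changes of 1.5-fold, 70.1% of 67 of 2-fold and 83.3% of 66 of 4-fold. Changed genes that the filter on low counts removed were counted as not found. The simulated libraries had a coefficient of variation of 0.035, so these shares do not cover spread between animals. Alternatives were DESeq2 1.42.0, limma-voom (limma 3.58.1), an exact binomial test, other size factors and filters, the replicate block and leaving out each library; the assumed coefficients of variation and the definition of pyrimidine runs were added after the data were seen. The gene table used here holds 0 Ensembl identifiers, so the other TOP genes, small nucleolar RNA hosts and cell type markers were not analysed here.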

Additional observations from a re-analysis of the deposited data

How the results depend on the processing

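The 786 genes called higher and 699 called lower became 404 and 408 with at least 10 counts required in every library, where 1574 genes were tested. With an assumed coefficient of variation of 0.2 they were 305 and 176, and with 0.4 they were 42 and 5, the assumed spread being wider than that between libraries. Under the other 13 settings both counts stayed within 1.5 times. Of the 9 RNAs, 6 were called higher in the main analysis and 5 with DESeq2 and without a filter (Tpt1 lost in both). Over all genes, 800 of 8686 were called higher with DESeq2 and 948 of 13236 without a filter. Of the 9, 5 were called with the 10-count filter (Gas5 and Hnrnpa1 not tested), 2 with 0.2 and 0 with 0.4. Leaving out each library gave 638 to 831 higher and 582 to 756 lower genes, with 2603 to 4251 genes tested. It gave 5 to 6 RNAs called higher. Gas5 did not pass the filter when an injured library was left out, so 8 of the 9 RNAs were tested there. None of the 9 RNAs was called lower under any setting. The 69 log2 ratios under other scalings or without a library kept their direction, and 67 kept their call. TMM factors lowered every log2 ratio by 0.07. Shares of counts and the ratio of Naca to Btf3 stayed within their intervals. With the replicate block, 749 genes were higher and 677 lower, and the same 6 RNAs were called. For each gene tested, the deviation of a library's log CPM from its group mean was also taken. These deviations correlated at 0.0107, 0.0035 and -0.038 between same-numbered injured and uninjured libraries, so the numbers were not taken to pair them. Gas5 and Hnrnpa1 had the fewest counts of the 9; 3 counts are 4.73 CPM in the injured and 8.60 CPM in the uninjured group.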
